A study of Mus musculus with 23 samples.

Results

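The genes described here are 8 genes that receive, activate or relay a steroid signal in skeletal muscle, chosen by symbol out of the 55573 gene IDs of the count table. They comprise 3 nuclear receptors (Nr3c1, Nr3c2 and Esr1), both enzymes of glucocorticoid reactivation (Hsd11b1 and H6pd) and 3 receptor coregulators (Ncoa1, Ncoa2 and Ncor1). Each symbol matched 1 Ensembl ID, and all 8 passed the filter on low counts that left 13049 genes for testing. RNA was sequenced from the quadriceps of 23 C57Bl6 mice (C57BL/6J in the study's methods), aged 8 to 10 weeks, after 14 days with a pellet under the skin of the neck. Corticosterone-treated mice carried 50 mg corticosterone with 50 mg cholesterol and vehicle-treated mice carried 100 mg cholesterol. The groups held 6 vehicle-treated males, 6 corticosterone-treated males, 6 vehicle-treated females and 5 corticosterone-treated females, and all mice were fasted for 5 h before they were killed. Each mouse has a letter, M or F for male or female, and a number, which is odd with vehicle and even with corticosterone.

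Glucocorticoids act through nuclear receptors that sit with heat shock proteins in the cytoplasm until the hormone binds, and then reach the DNA. Nr3c1 encodes the glucocorticoid receptor (GR), Nr3c2 the mineralocorticoid receptor, which binds corticosterone with higher affinity, and Esr1 the estrogen receptor alpha. Hsd11b1 encodes 11-beta-hydroxysteroid dehydrogenase type 1 (11bHSD1), which regenerates active corticosterone from its inert keto form inside the endoplasmic reticulum. H6pd encodes the hexose-6-phosphate dehydrogenase that supplies this reaction with NADPH. Ncoa1 and Ncoa2 encode p160 coactivators (SRC-1 and GRIP1) that bind agonist-bound receptors, and Ncor1 encodes a corepressor that brings histone deacetylase to chromatin.

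Skeletal muscle markers were high in every sample, and some libraries stood apart. Counts on genes lay between 20904150 and 21984477 per mouse. The summed CPM (read counts scaled to library size with edgeR's TMM) of 10 muscle markers lay between 105000 and 276000 in every mouse. Summed CPM of 10 adipocyte markers was 8340 in F6, 4600 in F2 and 4120 in F10, all corticosterone-treated females, against 424 to 3030 in the other 20 mice. Summed hepatocyte markers reached 2790 in F10, 2720 in M8 and 2080 in F6, and 1580 in M12 and 1570 in M9, against 47.9 to 447 in the others. Sums were 38.0 to 5810 CPM per mouse for slow fiber markers and 42.8 to 291 CPM per mouse for Schwann cells. Summed macrophage markers had medians of 148 to 271 CPM per group. Macrophage sums were highest in F10 and F6, Schwann cell sums were highest in F10 and F2, and muscle sums were lowest in F10 and F6. M3 lay above F2 in macrophage sum, F3 lay above F6 in Schwann cell sum, and the muscle sum of F2 was not low. No marker of any list was at 0 in all mice of a group. Of the muscle markers 2 rose and 1 fell in males and 1 rose and 1 fell in females. In males 1 endothelial and 1 smooth muscle marker fell. Of 6 satellite cell markers 1 rose and 1 fell in males, and 1 rose and 3 fell in females. Their median log2 fold change was -0.58 in males and -0.96 in females, so the sum below does not stand for the typical marker. Their sum was 5880 to 8080 CPM in treated and 2490 to 3770 CPM in vehicle-treated males. In females it was 2500 to 4780 CPM with corticosterone and 2070 to 2690 CPM with vehicle. Of the adipocyte markers 1 rose in males and 3 in females. Whether the sexes were handled together is not stated, so batch and sex cannot be told apart.

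On the corticosterone effect, the 3 receptors moved down or did not pass the test, and the reactivation enzymes moved up or did not pass the test. In males, 2 of the 8 genes passed an adjusted p-value of 0.01 (quasi-likelihood test of edgeR, Benjamini-Hochberg over all genes tested), namely Nr3c2 and Esr1, both lower. Among all genes tested 26.3% passed in males, 13.1% lower and 13.2% higher. In females, 4 of the 8 passed, with Nr3c1 and Esr1 lower and Hsd11b1 and H6pd higher. Among all genes tested 13.4% passed in females, 6.0% lower and 7.40% higher. Esr1 was the 1 gene of the 8 that passed in both sexes, against 6.52% of all genes tested. The 3 coregulators did not pass in either sex.

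The female calls were also examined without the 3 mice that were high in adipocyte markers. Some of these mice also had the highest macrophage or Schwann cell sums or the lowest muscle sums. Leaving them out therefore does not single out adipocyte markers. Without F2, F6 and F10, a comparison added after the data were seen that leaves 2 corticosterone-treated females, 0 of the 8 genes passed in females by edgeR and 129 of 12882 genes passed in all. The log2 fold changes of Hsd11b1 and H6pd were smaller, 0.83 and 0.44 in place of 4.04 and 1.02. Those of Nr3c1 (-0.54, as with all mice) and Esr1 (-0.88 in place of -0.70) were not. At an unadjusted p under 0.05, 3 of the 8 (Nr3c1, Esr1 and H6pd) remained, and no other tool was run on these mice. With the mean log2 CPM of the adipocyte markers as a covariate, also added afterwards, 1 of the 8 (Esr1) passed in females. The summed markers were themselves higher with corticosterone in females (median 4120 against 1220 CPM), so the covariate and the treatment cannot be fully told apart.

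**Figure D1:**
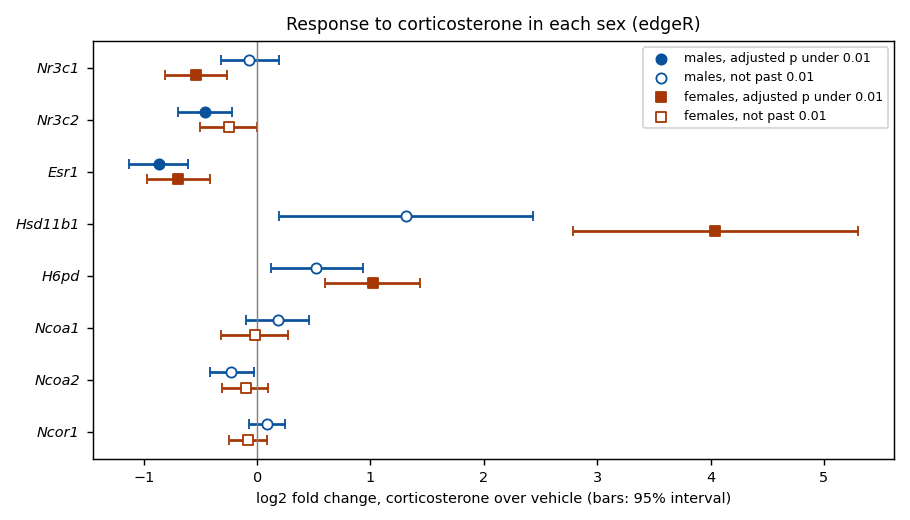
Log2 fold change of each gene, corticosterone over vehicle, in males (circles) and females (squares), with 95% intervals; filled symbols passed an adjusted p-value of 0.01. Esr1 lies below 0 in both sexes, and Hsd11b1 in females lies farthest from 0 at 4.04.

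Nr3c1 (ENSMUSG00000024431, chromosome 18, 39410545 to 39519421, minus strand, GRCm38) fell in corticosterone-treated females. Among corticosterone-treated females F4 had 81.2 CPM, F6 71.9, F2 64.8, F10 63.9 and F8 54.2. Vehicle-treated females ranged from 71.5 to 124 CPM with a median of 97.9. The groups overlapped, since F3 with vehicle had 71.5 CPM, but 5 of 5 treated females lay below the vehicle mean of 97.7 ± 16.9 CPM (SD, n = 6). Its log2 fold change in females was -0.54 ± 0.13 (SE; adjusted p = 0.00442, edgeR). It was again -0.54 without F2, F6 and F10, with an interval of -0.93 to -0.14 and an adjusted p of 0.127 by edgeR. The call was also lost without F2 (adjusted p = 0.0134), F7 (0.0137) or F8 (0.0108), without M8 and F10 (0.0106), and when each sex was fitted alone (0.0203).

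Male Nr3c1 levels overlapped almost fully. With vehicle the range was 68.5 to 107 CPM (median 75.6) and with corticosterone 70.0 to 86.1 CPM (median 75.8). In males the log2 fold change was -0.07, with a 95% interval of -0.32 to 0.19 (adjusted p = 0.688, edgeR). The difference between the male and the female log2 fold change was 0.47 ± 0.18 (SE), which did not pass the threshold (adjusted p = 0.0786, edgeR). With vehicle, Nr3c1 was 80.7 ± 14.8 CPM in males and 97.7 ± 16.9 CPM in females (SD, n = 6 each), with 5 of 6 males below the female mean. The log2 difference of -0.28 ± 0.12 (SE) did not pass (adjusted p = 0.315, edgeR).

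Nr3c2 (ENSMUSG00000031618, chromosome 8, 76899442 to 77245012, plus strand) fell in corticosterone-treated males. Corticosterone-treated males ranged from 5.6 to 8.41 CPM (median 7.75), and vehicle-treated males from 9.13 to 12.4 CPM (median 10.2). These groups did not overlap, as for 11.1% of all genes tested with lower values in treated males. This gave a log2 fold change of -0.46 ± 0.11 (SE; adjusted p = 0.00316, edgeR), a 1.37-fold lower level. It missed the threshold without M3 (adjusted p = 0.0104), without M8 and F10 (0.011) and with no filter on low counts (0.0115). Counts behind these values were low, from 127 to 264 per mouse over both sexes.

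In females, Nr3c2 was 10.9 CPM in F8, 10.5 in F10, 9.92 in F4, 8.36 in F6 and 7.0 in F2, against 9.45 to 12 CPM with vehicle (median 11.5). The 5 treated females lay below the vehicle mean of 11.1 CPM, but the groups overlapped. The log2 fold change of -0.25 ± 0.12 (SE) did not pass (adjusted p = 0.128, edgeR), and was -0.10 without F2, F6 and F10. The male and female log2 fold changes differed by -0.21 with an interval of -0.55 to 0.13 (adjusted p = 0.393, edgeR).

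Esr1 (ENSMUSG00000019768, chromosome 10, 4611593 to 5005614, plus strand) fell in both sexes. Corticosterone-treated males ranged from 11.4 to 18.7 CPM (median 17.4) and vehicle-treated males from 26.2 to 35.5 CPM (median 28.7). Among corticosterone-treated females F2 had 25.4 CPM, F10 22.9, F6 22.1, F8 21.9 and F4 16.7, against 29.4 to 43.6 CPM with vehicle (median 33.6). The groups did not overlap in either sex, as for 4.34% of all genes tested with lower values in treated females. Log2 fold changes were -0.87 ± 0.13 (SE) in males (adjusted p = 1.7e-05, edgeR) and -0.70 ± 0.13 in females (adjusted p = 0.00076, edgeR). These are 1.83-fold and 1.62-fold lower levels.

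In females the log2 fold change of Esr1 without F2, F6 and F10 was -0.88, with an interval of -1.27 to -0.49 and an adjusted p of 0.0125 by edgeR, just over the threshold. This estimate rests on F4 and F8 alone. The responses of the sexes differed by -0.17 with an interval of -0.55 to 0.20 (adjusted p = 0.527, edgeR). Among corticosterone-treated mice, the log2 difference of males over females was -0.43, which missed the threshold (adjusted p = 0.0135, edgeR). Without F2, F6 and F10 this difference was -0.24, with an interval of -0.61 to 0.13 (adjusted p = 0.422, edgeR).

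Markers of connective tissue moved with Esr1 in males and in part in females. Summed CPM of 10 fibroblast markers was 436 to 611 in corticosterone-treated males and 1130 to 1670 in vehicle-treated males, and 7 of the 10 fell in males by edgeR's test. In females the sum was 670 to 1350 with corticosterone and 1120 to 2090 with vehicle, and 3 of the 10 fell while 1 rose. The fibroblast marker Pdgfra was 19.8 to 25.9 CPM in corticosterone-treated males and 23.4 to 37.5 CPM in vehicle-treated males. In females Pdgfra was 27.9 to 45.2 CPM with corticosterone and 26.8 to 38.5 CPM with vehicle. The part of these markers in the fall of Esr1 was not tested. In these bulk samples, fewer cells of a type and less RNA per cell cannot be told apart.

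**Figure D2:**
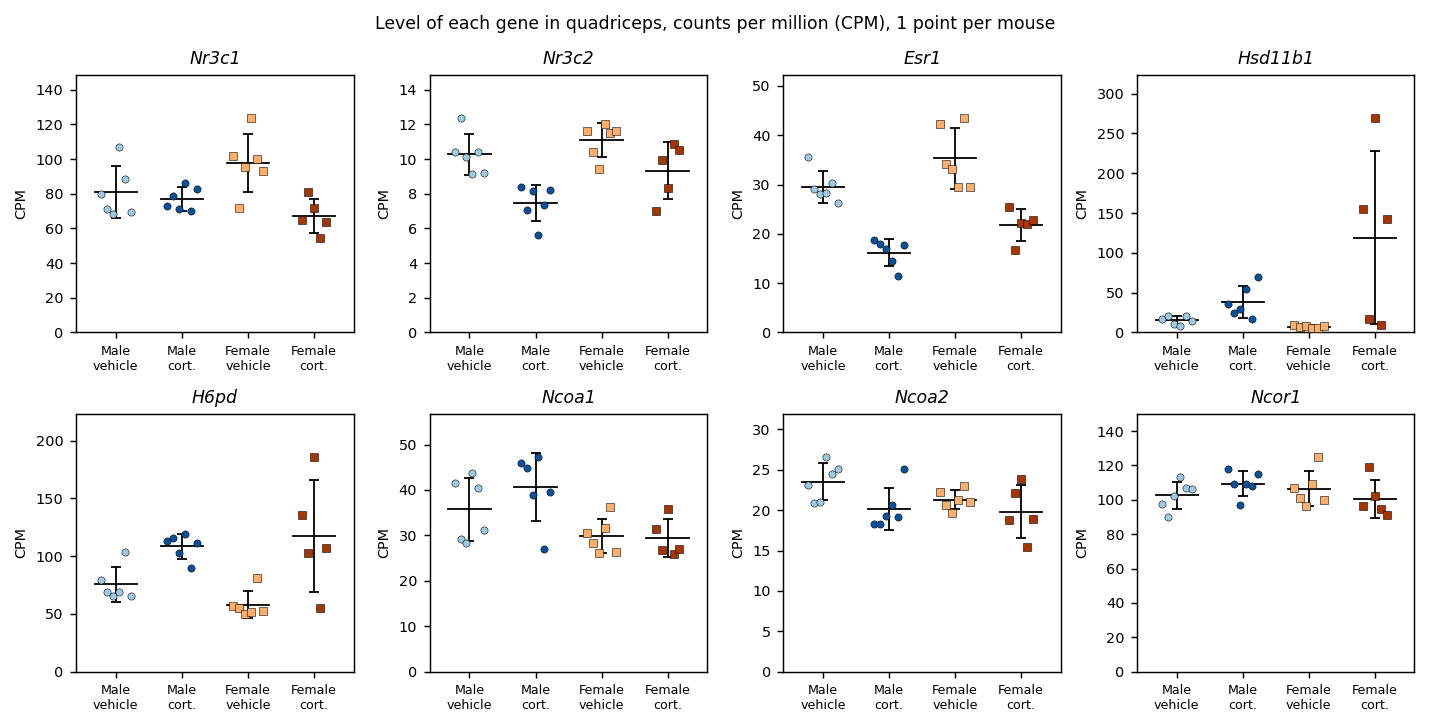
CPM of the 8 genes in each mouse, with group mean and SD (6, 6, 6 and 5 mice from left to right in each panel). Esr1 shows no overlap between vehicle and corticosterone in either sex, and Hsd11b1 in corticosterone-treated females splits into 9.25 and 16.5 CPM on one side and 143 to 270 CPM on the other.

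Hsd11b1 (ENSMUSG00000016194, chromosome 1, 193221634 to 193264075, minus strand) rose in corticosterone-treated females, with a split between mice. It was 270 CPM in F6, 155 in F2 and 143 in F10, but 16.5 in F4 and 9.25 in F8. Vehicle-treated females ranged from 5.39 to 9.61 CPM with a median of 7.40. F8 lay within the vehicle range, F4 just above it, and the other 3 treated females far above it. Over all 5 mice the log2 fold change was 4.04 ± 0.61 (SE), with a 95% interval of 2.79 to 5.30 (adjusted p = 9.19e-05, edgeR), a 16.5-fold higher mean level. The spread of Hsd11b1 in this group, an SD of 2.17 on the log2 CPM scale, was above that of 99.0% of the genes tested, whose median SD was 0.28.

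The 3 mice with high Hsd11b1 were the 3 with the highest adipocyte marker sums. The adipocyte hormone Adipoq was 626 CPM in F6, 368 in F10 and 366 in F2, against 126 in F4 and 5.95 in F8. Vehicle-treated females with high marker sums had Hsd11b1 near the group median. F5, with a marker sum of 3030 CPM, had 7.51 CPM Hsd11b1, and F3, with a sum of 2470 CPM, had 7.29 CPM. F4, with a lower sum of 1600 CPM, had 16.5 CPM. The female log2 fold change without F2, F6 and F10 was 0.83, with an interval of -0.04 to 1.70 (adjusted p = 0.301, edgeR). With the adipocyte score as a covariate it was 2.08, with an interval of 0.83 to 3.32 (adjusted p = 0.0281, edgeR). The hepatocyte marker sum was high in F10 and F6 but 447 CPM in F2, whose Hsd11b1 was 155 CPM. The part of fat or liver RNA in these values was not tested beyond these fits.

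In males, Hsd11b1 was 8.37 to 20.9 CPM with vehicle (median 16.1) and 16.3 to 70.0 CPM with corticosterone (median 32.4). All 6 treated males lay above the vehicle mean of 15.4 CPM, and M10 at 16.3 CPM and 3 vehicle-treated males at 17.4 to 20.9 CPM made the groups overlap. The log2 fold change of 1.31 ± 0.54 (SE) did not pass with all mice in the fit (adjusted p = 0.057, edgeR). When each sex was fitted alone it was 1.32 and passed (adjusted p = 0.00619, edgeR), and without F2, F6 and F10 it was 1.32 and passed too (adjusted p = 0.00172, edgeR). The adipocyte marker sums of the males overlapped, with 424 to 1390 CPM with vehicle and 1040 to 1670 CPM with corticosterone. M12 had the highest adipocyte sum among males and the highest Hsd11b1 at 70.0 CPM. Its hepatocyte marker sum was 1580 CPM, and M8, with a hepatocyte sum of 2720 CPM, had 54.1 CPM Hsd11b1. In the remaining treated males the hepatocyte sum was 47.9 to 320 CPM and Hsd11b1 was 16.3 to 35.7 CPM. M9, with vehicle, had a hepatocyte sum of 1570 CPM and 20.3 CPM Hsd11b1. The part of liver RNA in the male values was not tested.

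The male minus the female response was -2.73 ± 0.78 on the log2 scale with all mice (SE), which did not pass (adjusted p = 0.0304, edgeR). It passed with DESeq2 (adjusted p = 0.00895), without F4 (0.00978) and without F8 (0.00386). The order turned without F2, F6 and F10, with a response 0.49 higher in males on the log2 scale and an interval of -0.62 to 1.59 (adjusted p = 0.677, edgeR). With vehicle, each of the 6 males was above the female mean of 7.20 CPM. The log2 difference of 1.10 ± 0.55 (SE) did not pass (adjusted p = 0.41, edgeR).

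H6pd (ENSMUSG00000028980, chromosome 4, 149979475 to 150009023, minus strand) rose in corticosterone-treated females. It was 186 CPM in F6, 136 in F2, 107 in F10, 103 in F4 and 54.8 in F8, against 49.8 to 81.3 CPM with vehicle (median 54.1). All but 1 of these 5 mice lay above every vehicle-treated female, and F8 lay among them. Over all 5 mice the log2 fold change was 1.02 ± 0.20 (SE; adjusted p = 0.00109, edgeR), a 2.02-fold higher mean level. It was 0.44 without F2, F6 and F10, with an adjusted p of 0.269 by edgeR, and with the adipocyte score as a covariate 0.60, with an adjusted p of 0.049. When the females were fitted alone the adjusted p was 0.021 by edgeR.

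In males, H6pd was 65.5 to 104 CPM with vehicle (median 69.2) and 89.8 to 119 CPM with corticosterone (median 112). All 6 treated males were above the vehicle mean of 75.4 CPM, and M9 at 104 CPM caused the overlap. The log2 fold change of 0.52 ± 0.19 (SE) missed the threshold (adjusted p = 0.0356, edgeR). It passed when males were fitted alone (0.54, adjusted p = 0.00216, edgeR), with limma-voom (0.53, adjusted p = 0.00328) and without F2, F6 and F10 (0.53, adjusted p = 0.00786, edgeR). The male and female responses differed by -0.49 with an interval of -1.07 to 0.09 (adjusted p = 0.228, edgeR).

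**Figure D3:**
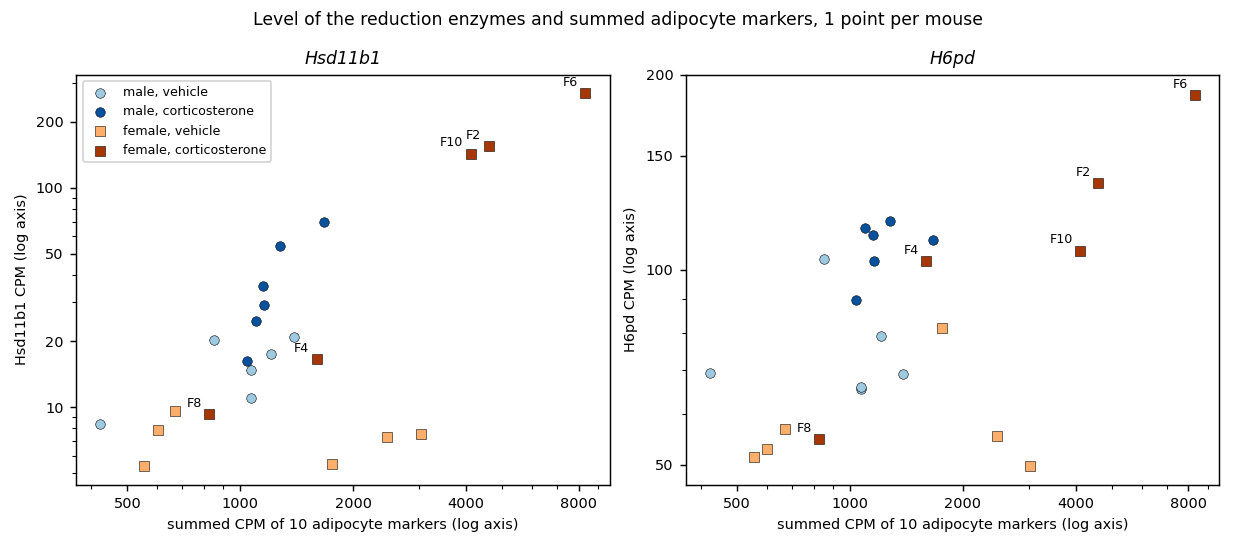
Hsd11b1 (left) and H6pd (right) in CPM against the summed CPM of 10 adipocyte markers, 1 point per mouse, both axes logarithmic, with the 5 corticosterone-treated females named. F6, F2 and F10 are highest in the markers and in Hsd11b1, while vehicle-treated females with sums up to 3030 CPM stay between 5.39 and 9.61 CPM for Hsd11b1.

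**Figure D4:**
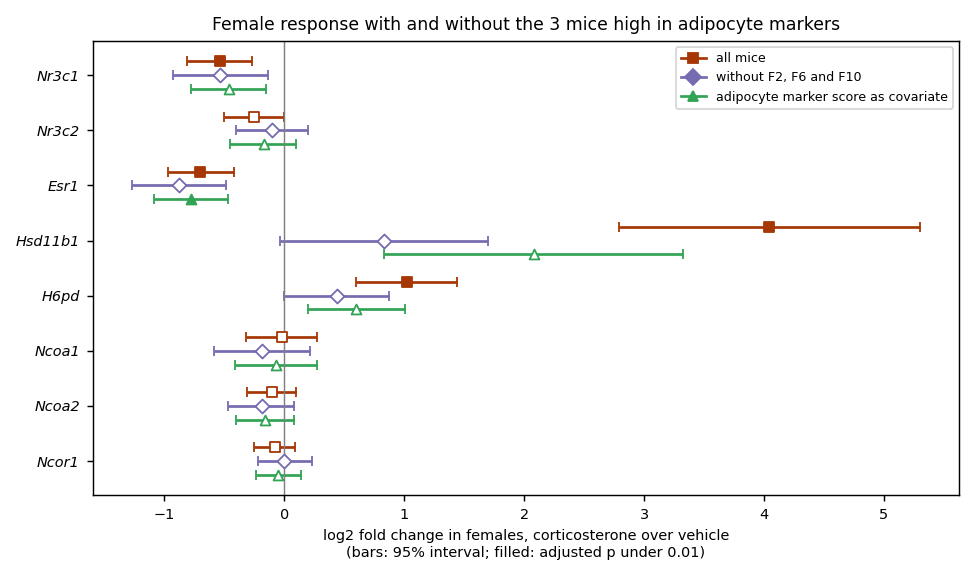
Female log2 fold changes with 95% intervals for all mice (squares), without F2, F6 and F10 (diamonds) and with the adipocyte marker score as a covariate (triangles); filled symbols passed an adjusted p-value of 0.01. Hsd11b1 moves from 4.04 to 0.83 and 2.08, and Esr1 from -0.70 to -0.88 and -0.78.

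The sequences at the starts of 4 genes that passed in either sex (Nr3c2, Esr1, Hsd11b1 and H6pd) are shown for reading beside these values. GR binds an element with the arms AGAACA and TGTTCT separated by any 3 bases. RefSeq windows (GRCm38.p6, 250 bases before to 50 after a transcript start) were used for 6 of the 8 genes, with 8 windows in all. No window of Nr3c1 or Ncoa2 was used, so the counts of windows do not cover these genes. The full element occurred in 0 of the 8 windows and in 3 of all 32851 windows of the table. A single arm (AGAACA or TGTTCT, which covers both strands) occurred in 3 of the 8 windows, of H6pd, Ncoa1 and Ncor1, against 19.0% of all windows. No match says only that these letters are not in the window.

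The Hsd11b1 window (chr1:193242311-193242610, minus strand) holds no arm, and its transcript start lies 21715 bases into the gene as GENCODE M21 annotates it. The H6pd window (chr4:150003187-150003486, minus strand) has its transcript start 5787 bases into the gene, shares no base with a GENCODE exon, and holds TGTTCT 94 bases before the start. The Esr1 windows (chr10:4611739-4612038 and chr10:4709908-4710207, plus strand) have their transcript starts 396 and 98565 bases into the gene and hold none. The Nr3c2 window (chr8:76902080-76902379, plus strand) has its transcript start 2888 bases into the gene and holds none. Sequences run 5′ to 3′ on the gene's strand, and capitals mark the arm.
Hsd11b1: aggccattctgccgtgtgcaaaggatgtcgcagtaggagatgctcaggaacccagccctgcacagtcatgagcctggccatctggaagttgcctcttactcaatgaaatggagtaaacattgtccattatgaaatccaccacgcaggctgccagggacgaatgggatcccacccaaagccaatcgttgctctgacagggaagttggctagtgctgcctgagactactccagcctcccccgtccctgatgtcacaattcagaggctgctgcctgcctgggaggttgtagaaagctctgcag
H6pd: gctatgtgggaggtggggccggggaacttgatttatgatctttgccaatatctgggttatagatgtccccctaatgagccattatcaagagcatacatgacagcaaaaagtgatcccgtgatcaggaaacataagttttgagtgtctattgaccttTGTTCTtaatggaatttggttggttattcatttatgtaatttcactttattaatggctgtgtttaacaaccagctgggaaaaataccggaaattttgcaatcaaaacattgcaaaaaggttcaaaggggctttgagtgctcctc
Esr1, first start: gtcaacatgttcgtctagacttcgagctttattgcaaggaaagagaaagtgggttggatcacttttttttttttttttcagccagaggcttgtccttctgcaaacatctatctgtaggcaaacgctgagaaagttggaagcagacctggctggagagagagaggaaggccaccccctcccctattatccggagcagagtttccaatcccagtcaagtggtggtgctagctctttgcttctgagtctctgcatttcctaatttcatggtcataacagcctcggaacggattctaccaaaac
Esr1, second start: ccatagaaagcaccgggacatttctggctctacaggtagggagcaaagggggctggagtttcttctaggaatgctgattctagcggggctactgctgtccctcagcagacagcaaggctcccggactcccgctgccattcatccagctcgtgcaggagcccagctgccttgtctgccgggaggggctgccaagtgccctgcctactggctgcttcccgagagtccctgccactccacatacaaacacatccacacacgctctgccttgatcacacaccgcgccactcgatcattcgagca
Nr3c2: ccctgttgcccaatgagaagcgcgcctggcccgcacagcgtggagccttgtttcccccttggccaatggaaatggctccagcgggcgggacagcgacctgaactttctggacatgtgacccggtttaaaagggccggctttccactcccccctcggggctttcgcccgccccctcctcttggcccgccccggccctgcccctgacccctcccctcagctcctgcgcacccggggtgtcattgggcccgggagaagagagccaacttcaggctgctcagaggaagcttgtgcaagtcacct

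The 3 coregulators did not pass in either sex, and their values overlapped between treated and vehicle-treated mice. Ncoa1 (ENSMUSG00000020647, chromosome 12, 4247362 to 4477182, minus strand) was 28.3 to 43.7 CPM in males with vehicle (median 35.8) and 27.0 to 47.3 CPM in males with corticosterone (median 42.3). In treated females it was 35.9 CPM in F6, 31.5 in F2, 27.1 in F10, 26.7 in F4 and 26.0 in F8, against 26.2 to 36.2 CPM with vehicle (median 29.5). Its log2 fold change was 0.18 in males with an interval of -0.10 to 0.46, and -0.02 in females with an interval of -0.32 to 0.27 (-0.19 without F2, F6 and F10). Among corticosterone-treated mice, Ncoa1 was 0.46 ± 0.14 (SE) higher in males on the log2 scale, which missed the threshold (adjusted p = 0.014, edgeR). It passed with DESeq2 (0.49, adjusted p = 0.00362), with the median of ratios in edgeR (0.49, adjusted p = 0.00928), and without M10 (adjusted p = 0.00258) or F6 (adjusted p = 0.00732).

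Ncoa2 (ENSMUSG00000005886, chromosome 1, 13139105 to 13374083, minus strand) was 20.9 to 26.6 CPM in males with vehicle (median 23.8) and 18.3 to 25.1 CPM in males with corticosterone (median 19.2). Among treated females F6 had 23.8 CPM, F4 22.1, F10 18.9, F2 18.8 and F8 15.4, against 19.6 to 23 CPM with vehicle (median 21.2). In males 5 of 6 treated mice lay below the vehicle mean, with a log2 fold change of -0.23 ± 0.10 (SE; adjusted p = 0.0648, edgeR). In females the log2 fold change was -0.10 with an interval of -0.31 to 0.10, and -0.19 without F2, F6 and F10.

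Ncor1 (ENSMUSG00000018501, chromosome 11, 62316426 to 62458541, minus strand) was 90.1 to 113 CPM in males with vehicle (median 104) and 96.8 to 118 CPM in males with corticosterone (median 109). Among treated females F4 had 119 CPM, F6 102, F2 96.3, F8 94.9 and F10 91.0, against 96.6 to 125 CPM with vehicle (median 104). Its log2 fold change was 0.09 in males (interval -0.07 to 0.25) and -0.08 in females (interval -0.25 to 0.09), and 0.00 in females without F2, F6 and F10. Both intervals with all mice leave out a change of the size seen for Esr1.

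Ratios within a mouse do not depend on how libraries are scaled, and 3 ratios of counts were compared in 9 tests by two-sided exact permutation tests with Benjamini-Hochberg adjustment. The smallest p-value the full groups allow is 0.00216. The ratio of Hsd11b1 to H6pd counts was 1.45 in F6, 1.34 in F10, 1.15 in F2, 0.169 in F8 and 0.161 in F4. Vehicle-treated females had a geometric mean of 0.124. The log2 ratio was 2.21 higher with corticosterone in females (exact permutation p = 0.00649, adjusted p = 0.039), and 0.41 higher without F2, F6 and F10 (exact permutation p = 0.286). In males it was 0.68 higher (exact permutation p = 0.0693, adjusted p = 0.125), with 0.197 for vehicle and 0.316 for corticosterone. With vehicle it was also 0.68 higher in males than in females (exact permutation p = 0.026, adjusted p = 0.0779).

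The ratio of Nr3c1 to Nr3c2 counts compares both receptors of corticosterone. Its geometric mean was 7.80 in vehicle-treated and 10.4 in corticosterone-treated males (log2 difference 0.41, exact permutation p = 0.0606). In females it was 8.72 with vehicle and 7.23 with corticosterone (log2 difference -0.27, exact permutation p = 0.175), and the log2 difference was -0.45 without F2, F6 and F10 (exact permutation p = 0.107). Neither shift passed, and the direction of the difference between the sexes was not tested.

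The ratio of summed Ncoa1 and Ncoa2 counts to Ncor1 counts was on average higher in males than in females with vehicle. Its adjusted p was over 0.01, and the groups overlapped, with M5 at 0.484 and females from 0.473 to 0.493. It was 0.574 in males and 0.481 in females as geometric means, a log2 difference of 0.25 (exact permutation p = 0.00866, adjusted p = 0.039). Vehicle-treated females lay close together, with an SD of 0.03 on the log2 scale, against 0.17 in males. Corticosterone shifted it by -0.05 in males (exact permutation p = 0.626) and by 0.02 in females (exact permutation p = 0.842), on the log2 scale. Without F2, F6 and F10 the female shift was -0.19 (exact permutation p = 0.0357), and that p is the smallest that 2 against 6 mice allow.

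**Figure D5:**
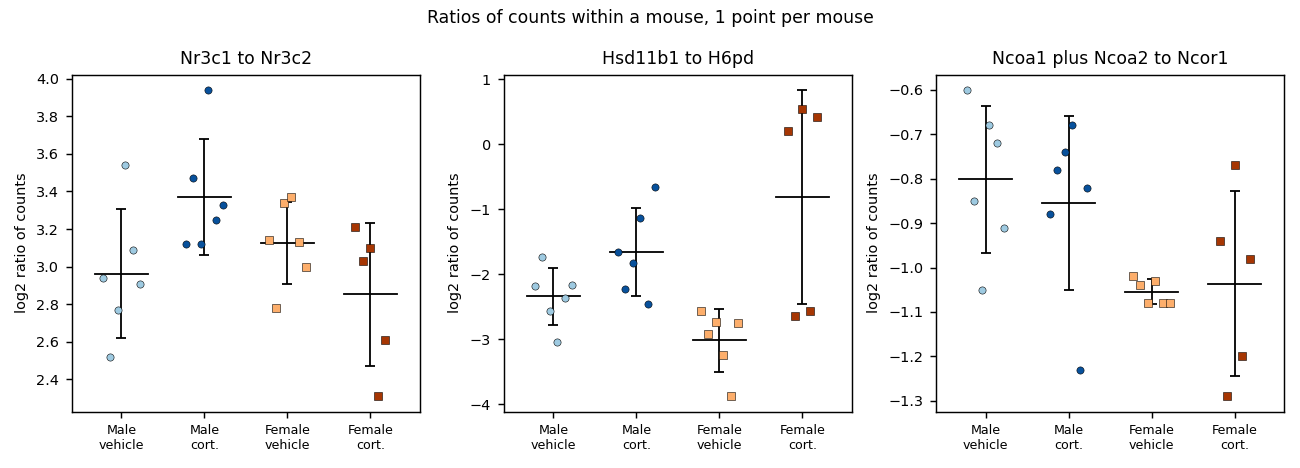
Log2 ratio of counts within each mouse for Nr3c1 to Nr3c2, Hsd11b1 to H6pd, and Ncoa1 plus Ncoa2 to Ncor1, with group mean and SD (6, 6, 6 and 5 mice). The Hsd11b1 to H6pd ratio splits the corticosterone-treated females into 3 mice above 0 and 2 mice within the vehicle range.

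Between the sexes, 0 of the 8 genes passed edgeR's test with vehicle, against 0.958% of all genes tested. At an unadjusted p under 0.05 there was 1 by edgeR (Nr3c1), 3 by DESeq2 (Nr3c1, Hsd11b1 and H6pd) and 2 by limma-voom (Nr3c1 and H6pd). After adjustment DESeq2 and limma-voom called 0. With corticosterone, 0 of the 8 passed edgeR's test, against 23.3% of all genes tested. At an unadjusted p under 0.05 there were 4 by edgeR, 4 by DESeq2 and 3 by limma-voom. After adjustment DESeq2 called 1 (Ncoa1) and limma-voom 2 (Esr1 and Hsd11b1). The log2 difference of Hsd11b1, males over females, was -1.63 with all mice (adjusted p = 0.0232, edgeR). Without F2, F6 and F10 it was 1.59 (adjusted p = 0.0434, edgeR). There 0 of the 8 passed, against 213 of 12882 genes in all. The difference between the male and female responses passed for 0 of the 8 by edgeR, against 0.690% of all genes tested. At an unadjusted p under 0.05 there were 2 by edgeR and 2 by DESeq2 (Nr3c1 and Hsd11b1), and 3 by limma-voom (also H6pd). After adjustment DESeq2 called 1 (Hsd11b1) and limma-voom 0.

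Levels of different genes were compared per length, as CPM per kilobase of exon (RPKM). In vehicle-treated males H6pd led with 14.4 ± 2.80 RPKM (SD, n = 6), followed by Nr3c1 with 10.5, Ncor1 with 8.0, Ncoa1 with 4.17, Hsd11b1 with 3.63, Esr1 with 2.17, Nr3c2 with 1.59 and Ncoa2 with 1.5. Every mouse was higher in Nr3c1 than any in Ncor1, and higher in Ncor1 than any in Ncoa1. The lowest Esr1 and the highest Nr3c2 value were both 1.92 RPKM after rounding, and the values of the other neighbours in this order overlapped. In vehicle-treated females Nr3c1 led with 12.7 ± 2.20 RPKM (SD, n = 6) and overlapped with H6pd at 11.1, and Hsd11b1 at 1.69 overlapped with Nr3c2 at 1.71. Per length, the GR transcript was above that of the mineralocorticoid receptor in both sexes. In corticosterone-treated males every mouse was higher in H6pd, with a mean of 20.7 RPKM, than any in Nr3c1, and Hsd11b1 with 9.01 RPKM overlapped with Nr3c1. In corticosterone-treated females Hsd11b1 had the highest mean at 28 ± 25.6 RPKM (SD, n = 5), which overlapped with H6pd at 22.4 ± 9.20.

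Counting used the strand, so opposite genes that share exon bases with Nr3c2 (Gm10649, 247 bases), Ncor1 (Pigl, 82 bases) and Ncoa1 (4921501I09Rik, 68 bases) were counted apart. No other gene on the same strand shared an exon base with any of the 8, and Ttc19 on the opposite strand shared 1 base with Ncor1.

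Genes around this pathway were described from lists. Their counts stand beside the 26.3% of all genes tested that passed in males and the 13.4% in females. Of 10 established GR targets, 10 rose in males and 5 in females (Fkbp5, Cdkn1a, Ddit4, Mt1 and Mt2), and 10 and 4 without F2, F6 and F10. Nr3c1 itself did not pass in males. Of 12 chaperones and cochaperones of GR, 4 rose in males and 2 in females, and 0 fell. Fkbp5, a cochaperone that lowers hormone binding, was 22.7 to 58.8 CPM with vehicle and 293 to 422 CPM with corticosterone in males (log2 fold change 3.36 ± 0.30 SE, adjusted p = 6.74e-08, edgeR). In females it was 12.5 to 48.4 CPM with vehicle and 149 to 278 CPM with corticosterone (3.05 ± 0.30, adjusted p = 1.77e-06, edgeR), and it passed without F2, F6 and F10 as well (2.93). The phosphatase Ppp5c rose in males (0.31 ± 0.06, adjusted p = 0.000508, edgeR). Hsp90aa1, a chaperone that holds GR ready for hormone, rose in females (1.45 ± 0.24, adjusted p = 0.000259, edgeR), with 53.7 CPM in F4 and 139 to 202 CPM in the other 4 treated females, and did not pass without F2, F6 and F10 (1.17, adjusted p = 0.0426).

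Of 8 genes listed for steroid access and tested out of 15, 1 rose and 1 fell in each sex. Abcb1b, a drug efflux pump that also exports steroids, rose by 1.36 ± 0.21 on the log2 scale in males (adjusted p = 2.97e-05, edgeR) and 1.12 ± 0.21 in females (adjusted p = 0.000836, edgeR). Slc37a4 carries glucose 6-phosphate, the substrate of H6pd, into the endoplasmic reticulum, and fell in both sexes. It was 141 to 233 CPM in vehicle-treated and 48.8 to 137 CPM in treated males, a log2 fold change of -0.92 ± 0.22 (SE; adjusted p = 0.00213, edgeR). In females it was 89.0 to 169 CPM with vehicle and 55.7 to 97.7 CPM with corticosterone, a log2 fold change of -0.94 ± 0.23 (SE; adjusted p = 0.00503, edgeR). Without F2, F6 and F10 the female log2 fold changes were 1.15 for Abcb1b and -0.74 for Slc37a4. Neither passed in females there (adjusted p = 0.0346 and 0.223, edgeR). Hsd11b2, which inactivates corticosterone, had at most 12 counts in a mouse and was not tested.

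Of 6 other receptors tested out of 8, Esrra fell in males and Pgrmc1 rose in females. Esrra, an orphan receptor of energy metabolism, had a log2 fold change of -0.65 ± 0.16 (SE; adjusted p = 0.00241, edgeR). Pgrmc1, a membrane progesterone receptor component, had 80.1 CPM in F6, 66.4 in F10, 45.2 in F2, 21.8 in F4 and 14.9 in F8, against 11.4 to 23.3 CPM with vehicle. Its log2 fold change was 1.54 ± 0.34 (SE; adjusted p = 0.00239, edgeR), and 0.22 without F2, F6 and F10 (adjusted p = 0.79). The same 3 mice were highest in Pgrmc1 and in Hsd11b1.

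Of 13 further coactivators, 1 rose and 3 fell in males, and 2 fell in females, where 26.3% and 13.4% of all genes tested passed. Carm1, an arginine methyltransferase that works with p160 coactivators, fell in both sexes, by 0.54 on the log2 scale in males (adjusted p = 0.000183, edgeR) and by 0.75 in females (adjusted p = 3.87e-05, edgeR). Neither Carm1 (-0.58, adjusted p = 0.0152) nor Prmt1 (-0.48, adjusted p = 0.0307), the other coactivator that fell in females, passed there by edgeR without F2, F6 and F10. The acetyltransferase Kat2b rose in males (0.49 ± 0.09, adjusted p = 0.000145, edgeR) and Ncoa7 fell there (-0.86 ± 0.15, adjusted p = 0.000102, edgeR). Of 11 further corepressors, 3 rose in males and 0 passed in females by edgeR. Gps2, a subunit of the complex around Ncor1, was 39.1 to 44.6 CPM in vehicle-treated males and 63.2 to 93.5 CPM in treated males, a log2 fold change of 0.99 ± 0.11 (SE; adjusted p = 4.36e-07, edgeR). Nrip1 and Lcor, ligand-dependent corepressors, rose by 0.81 (adjusted p = 0.00448) and 0.51 (adjusted p = 0.00089) in males. Gps2 was also the 1 gene of these lists whose response differed between the sexes (adjusted p = 0.00857, edgeR).

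The genes whose log2 CPM was most like that of each of the 8, by Pearson's r over the 23 mice, were Pcm1 (0.88) and Tprkb (0.85) for Nr3c1, and Tstd3 and Bcs1l (0.89 each) for Nr3c2. For Esr1 they were Psph and Pfn1 (0.90 each). For Hsd11b1 they were Slc6a13 and Lss (0.93 each), the latter the lanosterol synthase of cholesterol synthesis. For H6pd they were Cd164 (0.94) and Acbd4 (0.92). For the coregulators they were Cacng7 and Fam120a (0.84 each) with Ncoa1, Gm26782 (0.84) and Zfp783 (0.81) with Ncoa2, and Kdm7a (0.89) and Usp24 (0.87) with Ncor1. All these points share the 23 libraries and the treatment, and no test was made.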

How the data were processed

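The authors aligned read pairs of strand-specific mRNA libraries to mm10 with STAR 2.7.3a, counted those on 1 gene with HTSeq 0.12.4 using the strand, and deposited raw counts per gene for 23 mice. The deposited table holds 55573 Ensembl IDs and 5 entries for unassigned pairs (10.7% to 15.3% of a library), which were left out. Names and positions came from GENCODE M21 (GRCm38), which matched 55480 IDs.

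Tested were genes above 20 normalized counts in 4 or more mice of any group, with edgeR 4.0.16 (R 4.3.3, quasi-likelihood test, TMM, 1 model of the 4 group means over all mice, Benjamini-Hochberg adjustment over 13049 genes, threshold 0.01), after checks on simulated counts. Alternatives used DESeq2 1.42.0, limma 3.58.1, other filters and scaling, each sex alone, a block on mouse numbers and left-out mice. CPM uses TMM library sizes, log2 CPM a prior count of 1, and RPKM the union of a gene's exons. Replicates differed by more than sampling noise (chi-square per degree of freedom of at least 14.3). p-values measure the spread between mice.

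The genes and lists were chosen with earlier results of these data known. Named were the 8 genes, up to 3 genes of each surrounding list with the smallest adjusted p past the threshold, and the 2 tested genes most correlated with each of the 8. Other genes given by name were chosen after their values were seen. Marker lists were summed for muscle, slow fibers, adipocytes, hepatocytes, fibroblasts, macrophages, endothelium, smooth muscle, satellite cells and Schwann cells.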

Additional observations from a re-analysis of the deposited data

Results flagged for a closer look

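In 32 groups of values (8 genes in 4 groups of mice), 3 held a mouse far from the others by Dixon's test, where chance gives about 1 in 20. H6pd was 104 CPM in M9 among vehicle-treated males, against 65.5 to 79.0 CPM in the other 5, and M9 had a hepatocyte marker sum of 1570 CPM. H6pd was 81.3 CPM in F9 among vehicle-treated females, against 49.8 to 56.8 CPM in the other 5. Ncoa2 was 25.1 CPM in M12 among corticosterone-treated males, against 18.3 to 20.6 CPM in the other 5.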

How the results depend on the processing

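Of 1280 log2 fold changes recomputed (40 values of the 8 genes under up to 32 alternatives), 1229 kept their direction and their side of the threshold, 16 lost the call, 19 gained it and 16 turned. In males the number of genes called, 2 with all mice, was 1 with no filter, 4 with each sex fitted alone, 1 without M8 and F10, 4 without F2, F6 and F10, and 1 to 3 when 1 mouse was left out. In females it was 4 with all mice, 2 with each sex fitted alone, 0 without F2, F6 and F10, 1 with the adipocyte marker score as covariate, and 3 to 4 when 1 mouse was left out. For the difference between the responses it was 0 with edgeR, 1 with DESeq2 and 0 to 1 when 1 mouse was left out. For treated males against treated females it was 0 with edgeR, 1 with DESeq2, 2 with limma-voom, 1 with the median of ratios in edgeR and 0 to 2 when 1 mouse was left out. The causes of these shifts were not tested. Leaving out mice leaves fewer of them, but without F2, F6 and F10 no male was left out. The male log2 fold change of Hsd11b1 was then 1.32 ± 0.30 (SE), against 1.31 ± 0.54 with all mice.

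Without F2, F6 and F10 the log2 values that turned were 0.00 for Ncor1 in females, 0.01, 0.49 and 0.10 for Esr1, Hsd11b1 and H6pd in the difference between the responses, and 1.59 and 0.48 for Hsd11b1 and H6pd in treated males against treated females. H6pd turned to 0.23 there with the adipocyte marker score as covariate. Ncoa1 in females turned to 0.05 with limma-voom. When 1 mouse was left out, ranges that crossed 0 were -0.11 to 0.03 for Nr3c1 in males, -0.11 to 0.04 for Ncoa1 in females, and -0.29 to 0.14 for H6pd and -0.06 to 0.12 for Ncoa2 in treated males against treated females. The log2 ratio of Hsd11b1 to H6pd in females was 1.87 to 2.66 when 1 mouse was left out and 0.41 without F2, F6 and F10. In males it was 0.48 to 0.84, with an unadjusted exact permutation p under 0.05 without M4, M10 or M3. With vehicle it was 0.50 to 0.82 between the sexes, and the unadjusted p was over 0.05 without M3, F7 or F9. The adjusted p with all mice was 0.125 and 0.0779. The log2 ratio of Nr3c1 to Nr3c2 in males was 0.30 to 0.53, with an unadjusted p under 0.05 without M7. The ratio of Ncoa1 plus Ncoa2 to Ncor1 shifted by -0.10 to 0.02 in males and -0.05 to 0.08 in females when 1 mouse was left out, and by -0.19 in females without F2, F6 and F10.

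Same-numbered males and females were not treated as pairs in the main fits, and whether they pair was not tested. Deviations from the group means correlated between -0.377 and 0.477 over 11 pairs, 7 of them over 0.1, and 4 males correlated best with their own number. A replicate block gave 97 genes in place of 90 for the difference between the responses, and turned Ncoa2 to -0.04 in treated males against treated females, with 0 of the 8 genes called in any of the 3 comparisons it allows. Corticosterone against vehicle allows no such block, since the numbers differ between the treatments.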
